A study of Mus musculus with 6 samples.

Results

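The genes described here are the nuclear genes of oxidative phosphorylation, the process by which mitochondria pass electrons along a chain of membrane complexes and use the proton gradient so formed to make ATP. They were taken as the protein-coding rows of the deposited count table whose mouse symbol began with Nduf, Uqcr, Atp5 or Cox4 to Cox8, together with Sdha, Sdhb, Sdhc, Sdhd, Cyc1 and Cycs. That rule gave 96 genes of the 57180 gene identifiers in the table: 36 of complex I, 8 assembly factors of complex I, 4 of complex II, 9 of complex III, cytochrome c, 20 of complex IV and 18 of ATP synthase (complex V). Ndufa4 was counted with complex IV, where its protein sits despite its name, and its relative Ndufa4l2 was placed beside it. Among the 18 ATP synthase rows, a second entry of Atp5o had 0 counts in every library. Atp5s was counted there by its symbol alone and was placed in none of the parts of the enzyme described below. Another 13 rows with such symbols, 12 of them processed pseudogenes, were not protein-coding and were left out.

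The RNA came from macrophages sorted from mouse white adipose tissue on the surface proteins F4/80 and CD11b, per the design text, while the extraction protocol speaks of tissue. All mice were labelled wild type and kept on a high-fat diet (HFD), 3 libraries without and 3 with magnesium isoglycyrrhizinate (MGIG), a salt of a liquorice-derived triterpene glycoside. The comparison asks what MGIG changed in these macrophages under the diet that both groups shared. Strain, age, sex, dose, length of treatment and whether each library came from its own mouse are not stated by the labels, so p-values measure only how these libraries vary, part of which may be technical.

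The groups differed in depth and in background. Total counts were 14437605 to 16740417 in HFD and 2214456 to 4904302 in HFD+MGIG. Families that macrophages do not use, such as odorant and taste receptors, took 0.0624% to 0.280% of counts in HFD and 2.94% to 6.43% in HFD+MGIG. Protein-coding genes took 95.0% to 96.1% and 62.4% to 82.7%, with HFD+MGIG 2 the lowest in this share and the highest in the silent families. Levels are given as CPM, the count scaled to a library total of 1e6, and fold changes as HFD+MGIG over HFD. A pair of fits of edgeR's quasi-likelihood test was used, each with Benjamini-Hochberg adjusted p-values and a threshold of 0.05: a fit over all 23055 filtered genes, and a fit over 2606 background-limited genes. The latter are protein-coding genes whose bound on background was at most 0.25 of their level, both averaged over all 6 libraries. The bound was taken from the 90th percentile of the silent families' counts per kb and the gene's exon length. Within HFD+MGIG it could be a larger part of the level: 2.68 of 29.2 CPM in Ndufa1, but 20.8 of 36.6 CPM in Sdhc. Values of that fit are therefore not free of background in HFD+MGIG. Each fit has its own scale.

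Complex I (NADH dehydrogenase) and complex II (succinate dehydrogenase) feed electrons to ubiquinone. Complex III passes them to cytochrome c, and complex IV hands them to oxygen. Complexes I, III and IV pump protons, and ATP synthase lets them flow back through its membrane rotor while its catalytic head makes ATP. The mitochondrial genome codes for a few core subunits, while the nucleus codes for all others and for all of complex II. In macrophages, the balance between this chain and glycolysis is known to differ between activation states, and complex II and reverse electron flow through complex I are known sources of reactive oxygen species.

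Summed over the 96 genes, the level was 6457, 5283 and 5119 CPM in HFD 1, 2 and 3 and 4400, 3003 and 4253 CPM in HFD+MGIG 1, 2 and 3. All HFD libraries were above all HFD+MGIG libraries, HFD 1 was the highest and HFD+MGIG 2 the lowest. The means were 5619 ± 730 CPM and 3885 ± 768 CPM (SD, n = 3 each), a ratio of 0.691. In RNA from many cells, fewer cells that use these genes and less of their RNA per cell cannot be told apart. Protein-coding counts outside the silent families were also used for scaling, in place of all counts. Scaled to 1e6 of these, the sums were 6779, 5579 and 5335 in HFD against 5516, 5366 and 5613 in HFD+MGIG. On that scale the groups overlapped, and the ratio was 0.932. The members thus took a lower share of all counts in HFD+MGIG, while their shares of the protein-coding counts outside the silent families overlapped.

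**Figure D1:**
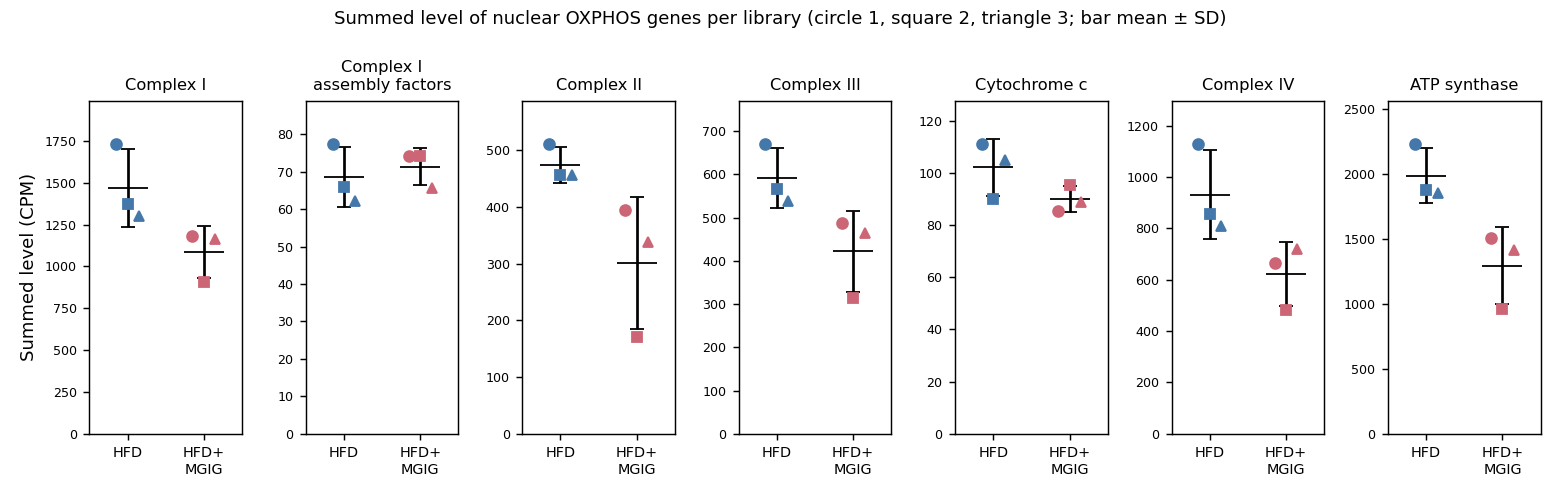
Summed level in CPM (vertical axis, from 0) of the nuclear oxidative phosphorylation genes of each complex in the 3 HFD (blue) and 3 HFD+MGIG (red) libraries; symbols give the replicate number and black bars the mean ± SD. HFD+MGIG libraries lie below HFD libraries in complexes I, II, III, IV and ATP synthase, with HFD+MGIG 2 lowest (171 CPM in complex II and 959 CPM in ATP synthase), while complex I assembly factors and cytochrome c overlap.

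In the fit over all filtered genes, 90 of the 96 members were tested, 35 of them passed and were lower with MGIG, and 0 passed and were higher. Of all 23055 genes tested, 17.8% passed and were lower and 42.9% passed and were higher. Among protein-coding genes outside the silent families 26.8% passed and were lower. Among the background-limited genes, which resemble the members in level, 43.1% passed and were lower. The members with a background-limited level were 63, of which 31 passed and were lower on this scale, near the share of that set. The median log2 fold change of the 90 members was -0.81, against -0.91 for all background-limited genes and 0.38 for all filtered genes. Without regard to adjustment, 56 members had an unadjusted p below 0.05. The count of lower members without HFD 1, 2 or 3 was 3, 12 and 10. Without HFD+MGIG 1, 2 or 3 it was 48, 57 and 10, so that leaving out any library except HFD+MGIG 1 moved it by over 1.5 times.

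In the fit over background-limited genes, 63 members were tested, 0 passed and were lower and 1, Atp5l, passed and was higher. Atp5l entered that set only through its higher HFD+MGIG level, as described below. Of all 2606 genes in that fit, 6.25% passed and were lower and 4.45% passed and were higher. The members' median log2 fold change was 0.14, with 52 above 0 and 11 below, against a median of 0.03 for all genes of the fit. Leaving out HFD 1, 2 or 3 gave a median of 0.26, 0.11 and 0.03, and leaving out HFD+MGIG 1, 2 or 3 gave 0.27, 0.05 and 0.13. Without HFD 3 or HFD+MGIG 2, 39 members were above 0 and 24 below. Of the 63, 59 had a log2 fold change smaller in size than 0.5, with standard errors from 0.125 to 0.326, and 4 had an unadjusted p below 0.05. Relative to the background-limited genes, the members of all complexes lay close to the middle. After removal of the trends of the libraries with GC content and exon length, the median was -0.01 and 0 members passed in either direction.

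**Figure D2:**
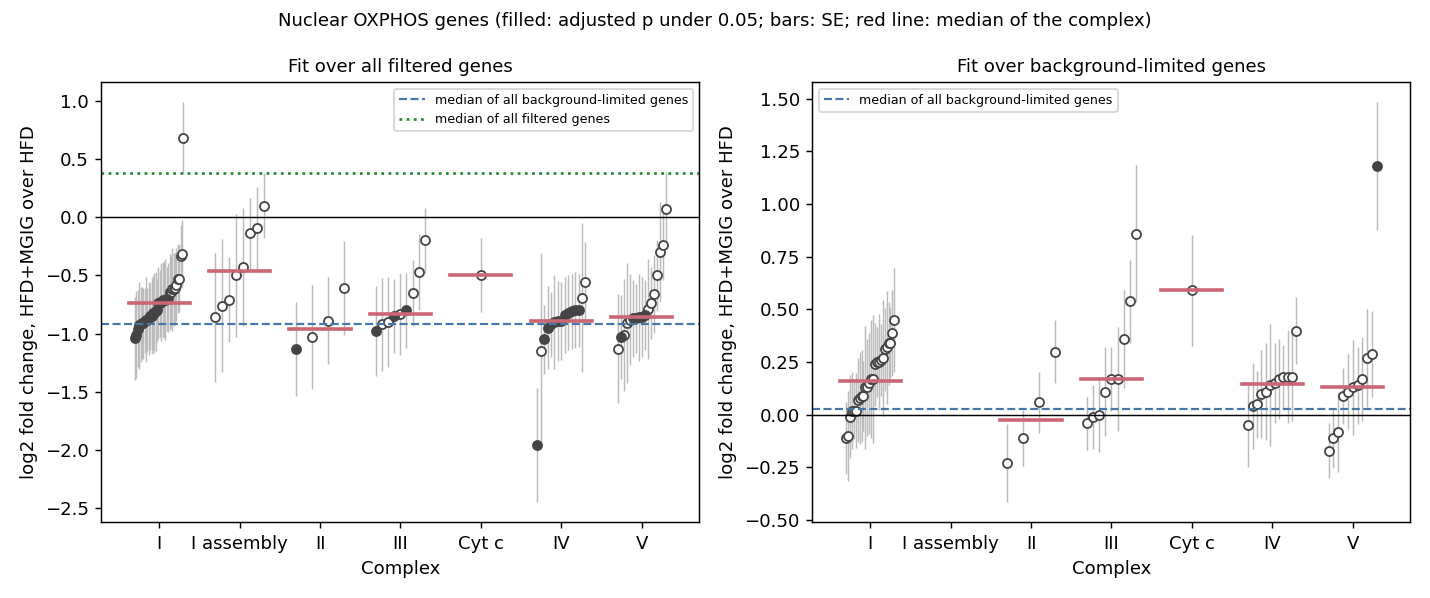
Log2 fold change (HFD+MGIG over HFD, vertical axes) of each tested gene by complex, in the fit over all filtered genes (left) and over background-limited genes (right); grey bars are SE, filled points have an adjusted p below 0.05, and red lines are medians of the complex. On the left most members lie around the -0.91 median of the background-limited genes (blue dashes) and below the 0.38 median of all filtered genes (green dots); on the right they lie around 0, with Atp5l at 1.18.

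The CPM values alone gave the same picture. In 52 of 96 members all HFD+MGIG libraries were below all HFD libraries, in 4 all were above, and in 40 the groups overlapped. The 40 include the Atp5o entry without counts. Among all 23055 filtered genes 23.7% were lower without overlap. Of the 63 background-limited members 43 were lower without overlap, beside 68.1% of all background-limited genes. Across the 90 tested members, HFD 1 was the highest library in 82 and HFD+MGIG 2 the lowest in 71.

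A check of the sorted cells against marker genes goes beside these values. For the counts below, 17.8% of all genes were lower and 42.9% higher on the all-gene scale. Macrophage markers summed to 15931 to 18179 CPM in HFD against 6902 to 17956 CPM in HFD+MGIG, with HFD+MGIG 2 the lowest; 0 of 14 passed on the all-gene and 0 of 13 on the background-limited scale. Endothelial markers summed to 2095 to 2493 CPM and 452 to 833 CPM, with 10 of 10 lower. White adipocyte markers summed to 4101 to 6677 CPM and 1750 to 2611 CPM, with 11 of 12 lower. Fibroblast markers summed to 2679 to 4141 CPM and 1350 to 2031 CPM, with 7 of 10 lower. Of the background-limited markers, 5 of 6 endothelial, 3 of 7 fibroblast and 1 of 6 white adipocyte genes were lower on the background-limited scale as well. These 3 lists of cells other than macrophages were counted in both groups, at higher CPM in HFD, and their part in the member values was not tested. The remaining lists varied in direction. T cell markers averaged 50.5 CPM in HFD against 63.4 CPM with MGIG (1 lower and 1 higher of 8), B cell markers 272 and 256 CPM (0 lower and 2 higher of 6) and neutrophil markers 187 and 195 CPM (0 lower and 1 higher of 6). Erythroid markers, chiefly globins, averaged 2049 CPM in HFD against 1348 CPM with MGIG (2 lower and 0 higher of 6). Their sums ran from 1237 to 2637 CPM over both groups, which overlapped. Brown adipocyte markers averaged 21.0 CPM in HFD against 56.2 CPM in HFD+MGIG (at most 23.0 and 94.8 CPM), with 2 lower and 3 higher of 7 tested, and 7 of 8 were at or below the bound in HFD+MGIG. Skeletal muscle markers averaged 33.3 CPM in HFD against 24.7 CPM with MGIG (2 of 7 lower), with 10 of 10 at or below the bound.

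The promoters of these genes are known for sites of the transcription factors NRF1 and GABP (an ETS family factor), which tie nuclear respiratory genes together. Promoters were matched for 76 members in RefSeq's table (GRCm38.p6) and searched over 250 bases before the start site on both strands. The letters GCGCANG, the core of the NRF1 motif, occurred in 27 of the 76 (35.5%), against 14.1% of 27025 promoters. The letters CCGGAAG, an ETS core, occurred in 13 (17.1%) against 7.05%. The letters AAGATGG, a YY1 core, occurred in 0, against 4.53%. Any of the 3 stretches occurred in 35 of the 76 (46.1%), against 23.0% of all promoters, so many members had none. By complex the share was 43.8% of 32 in complex I, 60.0% of 5 in III, 28.6% of 14 in IV and 42.9% of 14 in V. Windows around matches follow for a member of each complex and for cytochrome c, picked from the members with a match. Capitals mark the match, which reads GCGCANG or its complement for NRF1, and CTTCCGG, the complement of CCGGAAG, for ETS in Uqcrh and at the right in Atp5l. Each reads 5′ to 3′ on the strand of the gene.
Ndufa8 (chr2:36049339-36049377, minus strand): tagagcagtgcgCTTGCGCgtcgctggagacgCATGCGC
Sdhb (chr4:140961206-140961236, plus strand): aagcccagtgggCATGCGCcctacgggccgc
Uqcrh (chr4:116075071-116075092, minus strand): gagtatgccgcaCTTCCGGcca
Cox5b (chr1:36691424-36691454, plus strand): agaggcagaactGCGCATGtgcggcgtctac
Atp5l (chr9:44920936-44920992, minus strand): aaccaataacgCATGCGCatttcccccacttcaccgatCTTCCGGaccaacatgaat
Cycs (chr6:50566610-50566640, minus strand): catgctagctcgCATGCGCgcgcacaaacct
A match is a stretch of letters and not evidence of binding, and base composition was not matched between members and all promoters.

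Complex I takes electrons from NADH at its flavoprotein Ndufv1, passes them along iron-sulfur clusters and pumps protons in its membrane arm. Its 36 subunit genes summed to 1469 ± 231 CPM in HFD against 1085 ± 154 CPM in HFD+MGIG, a ratio of 0.739. On the all-gene scale 16 of 36 were lower and 0 higher, with a median log2 fold change of -0.74. That count is near the share of all background-limited genes that were lower, 43.1%, and 17.8% of all genes were lower. On the background-limited scale 26 were tested, 0 passed, and the values ran from -0.11 to 0.45 with a median of 0.16. The arms had similar values: the all-gene medians were -0.70 for 8 genes of the NADH-oxidising module, -0.85 for 5 genes of the ubiquinone-reducing module and -0.74 for the other 23. Their lower counts were 3, 3 and 10. Without HFD 1 the count for complex I was 0, and without HFD+MGIG 2 it was 23.

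Ndufv1 (chr19:4007384-4012806), which holds the flavin that accepts electrons from NADH, had the lowest all-gene fold change of the complex. Its level was 83.5, 60.6 and 63.3 CPM in HFD against 53.0, 26.2 and 41.2 CPM in HFD+MGIG. HFD and HFD+MGIG stood apart, and HFD+MGIG 2 was the lowest. The log2 fold change was -1.04 (SE 0.358, adjusted p = 0.0242), lost in 4 of 13 alternatives, and on the background-limited scale it was -0.11 (adjusted p = 0.702). Per kb of transcript, the most abundant complex I genes were Ndufb8 and Ndufa1, accessory subunits of the membrane arm, at 96.4 and 95.8 CPM per kb in HFD. Ndufb8 was at 75.3, 64.1 and 57.2 CPM in HFD against 61.7, 39.7 and 52.4 CPM in HFD+MGIG, and Ndufa1 at 45.9, 39.8 and 34.7 CPM and 29.9, 21.7 and 36.1 CPM. In both genes the groups overlapped, with adjusted p-values of 0.105 and 0.0543.

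Ndufb2, a small accessory subunit of the membrane arm, stood apart. It was at 24.6, 22.4 and 19.4 CPM in HFD against 26.3, 69.1 and 42.8 CPM in HFD+MGIG. All HFD+MGIG libraries were above all HFD libraries, with HFD+MGIG 2 the highest, which reverses the usual order of the libraries. The log2 fold change was 0.68 (SE 0.307, adjusted p = 0.0706), past the threshold in 5 of 13 alternatives. The background bound for its exons was 36.0 CPM in HFD+MGIG, above its whole HFD level of 22.1 ± 2.59 CPM, so it was not among the background-limited genes. Its exons (chr6:39592574-39603382) also overlap Braf and an antisense gene on the other strand, and Gm42420, annotated as protein-coding, by 145 bases on the same strand. How reads of these overlaps were assigned is not stated, so they cannot be told apart.

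The 8 Ndufaf genes code for factors that build complex I and are not part of it. All were low, from 1.81 to 25.8 CPM in any library, and together they were at 68.5 ± 7.98 CPM in HFD against 71.3 ± 4.90 CPM in HFD+MGIG. None of the 8 was background-limited, 5 had an HFD+MGIG mean at or below the bound, and 0 passed on the all-gene scale, where 17.8% of all genes were lower, with a median of -0.46. With the median silent-family background subtracted, the ratio of their sums was 0.658 in place of 1.04. The direction of this group therefore rests on how background is handled.

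Complex II oxidises succinate in the tricarboxylic acid cycle and is coded by the nucleus alone. Sdha, the flavoprotein, was at 219, 216 and 207 CPM in HFD against 167, 69.1 and 143 CPM in HFD+MGIG. Sdhb, the iron-sulfur subunit, was at 112, 91.8 and 84.2 CPM and 77.8, 41.1 and 68.9 CPM. For these catalytic subunits the groups did not overlap, and the log2 fold changes of -1.03 and -0.89 missed the threshold (adjusted p = 0.0636 and 0.0550). Sdhc and Sdhd anchor them in the membrane and hold the ubiquinone site. Sdhc (chr1:171127165-171150603) was at 74.3, 63.4 and 65.2 CPM in HFD against 46.0, 17.2 and 46.7 CPM in HFD+MGIG. It was lower in every HFD+MGIG library, with a log2 fold change of -1.13 (SE 0.404, adjusted p = 0.0287), lost in 3 of 13 alternatives: without HFD 3 (adjusted p = 0.0566), without HFD+MGIG 3 (0.0547) and with a minimum of 5 CPM in 3 libraries (0.0826). Sdhd was at 106, 84.4 and 99.2 CPM in HFD against 104, 43.4 and 80.3 CPM in HFD+MGIG, overlapping, with a log2 fold change of -0.61 (adjusted p = 0.196).

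The 4 genes summed to 511, 456 and 456 CPM in HFD against 395, 171 and 339 CPM in HFD+MGIG, so HFD+MGIG 2 was far below the others of its group. On the all-gene scale 1 of 4 passed and was lower, beside 43.1% of all background-limited genes, with a median of -0.96. On the background-limited scale 0 of 4 passed, with values of -0.11, 0.06, -0.23 and 0.30 for Sdha, Sdhb, Sdhc and Sdhd. Scaled to 1e6 protein-coding counts outside the silent families, complex II was at 536, 481 and 475 in HFD. In HFD+MGIG it was at 495, 305 and 447. The groups overlapped on that scale, where the ratio was 0.836 with HFD+MGIG 2 far below the other libraries.

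Complex III moves electrons from ubiquinol to cytochrome c through cytochrome c1, coded by Cyc1, and the Rieske iron-sulfur protein, coded by Uqcrfs1. Its 9 genes summed to 592 ± 69.1 CPM in HFD against 422 ± 93.7 CPM in HFD+MGIG, a ratio of 0.713. On the all-gene scale 3 of 9 were lower (0 without HFD 1 and 7 without HFD+MGIG 2), beside 43.1% of all background-limited genes. Cyc1 was at 66.3, 53.6 and 55.0 CPM in HFD against 50.4, 19.0 and 42.2 CPM in HFD+MGIG, without overlap (log2 fold change -0.90, adjusted p = 0.0606). Uqcrc1, a large core protein on the matrix side, was at 126, 119 and 110 CPM and 89.9, 46.1 and 81.4 CPM. It was lower in every HFD+MGIG library (log2 fold change -0.98, adjusted p = 0.0435), a call lost in 6 of 13 alternatives.

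Uqcrb, a small subunit near the ubiquinone pocket, was the most abundant per kb in complex III at 199 CPM per kb in HFD. Its level was 115, 110 and 93.7 CPM in HFD against 82.2, 56.4 and 81.6 CPM in HFD+MGIG, without overlap (log2 fold change -0.83, adjusted p = 0.0584). Uqcrh, the hinge protein at the cytochrome c docking site, was at 58.4, 42.7 and 42.2 CPM in HFD against 36.9, 33.4 and 41.4 CPM in HFD+MGIG, also without overlap, though by a small gap (log2 fold change -0.65, adjusted p = 0.0630). Uqcrq, another small subunit, was at 39.2, 25.5 and 26.5 CPM and 26.3, 34.8 and 37.5 CPM. It overlapped between groups and had the highest fold change of the complex, -0.20 on the all-gene and 0.86 on the background-limited scale (adjusted p = 0.538 and 0.134). Its bound in HFD+MGIG was 11.7 CPM.

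On the background-limited scale 0 of the 9 complex III genes passed, and their values ran from -0.04 for Uqcrc1 to 0.86 for Uqcrq with a median of 0.17. Cytochrome c, coded by Cycs, carries electrons to complex IV and, once released, starts the apoptosome. It was at 111, 90 and 105 CPM in HFD against 85.5, 95.3 and 88.7 CPM in HFD+MGIG. The groups overlapped, the HFD+MGIG libraries lay close together, and HFD+MGIG 2 was not the lowest as it was for most members. The log2 fold change was -0.50 (adjusted p = 0.179) on the all-gene and 0.59 (adjusted p = 0.210) on the background-limited scale.

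Complex IV reduces oxygen at a core coded by the mitochondrial genome, surrounded by nuclear subunits that often come as isoforms for different tissues. Its 20 nuclear genes summed to 930 ± 173 CPM in HFD against 622 ± 125 CPM in HFD+MGIG, a ratio of 0.669. On the all-gene scale 10 of 15 tested genes were lower, with a median of -0.89, beside 43.1% of all background-limited and 17.8% of all genes. Without HFD 1 the count was 2 of 14, and without HFD+MGIG 2 it was 13 of 17. On the background-limited scale 12 were tested, 0 passed, and the values ran from -0.05 to 0.40.

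The isoforms with the highest levels were those of most tissues. Cox4i1, which binds ATP and tunes the enzyme, was at 204, 148 and 147 CPM in HFD against 133, 72.7 and 116 CPM in HFD+MGIG. Cox4i2, the lung isoform linked to low oxygen, was at 1.97, 1.59 and 0.373 CPM and 1.2, 0.452 and 0.408 CPM. Per kb of transcript Cox4i1 was at 217 CPM per kb in HFD, and Cox4i2 was at or below the bound in HFD+MGIG. Cox4i1 did not overlap between groups, but its log2 fold change of -0.90 missed the threshold (adjusted p = 0.0690).

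Cox6a1 and Cox6b1, the widely used forms of subunits at the dimer face and the cytochrome c side, were both lower on the all-gene scale. Cox6a1 was at 112, 86.3 and 81.0 CPM in HFD against 55.7, 42.9 and 77.3 CPM with MGIG (log2 fold change -0.95, adjusted p = 0.0354). Cox6b1 was at 103, 76.7 and 70.2 CPM and 54.2, 43.8 and 66.1 CPM (log2 fold change -0.89, adjusted p = 0.0353). HFD+MGIG 3 came near the lowest HFD library in both genes, and the calls were lost in 6 and 8 of 13 alternatives. The striated muscle form Cox6a2 was at most 0.241 CPM in any library and the testis form Cox6b2 between 0.964 and 2.15 CPM.

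Cox7a2 (chr9:79755361-79759878) codes for the liver-type form of a small membrane subunit. It was at 62.4, 47.5 and 49.4 CPM in HFD against 33.3, 26.2 and 34.7 CPM in HFD+MGIG, well apart. The log2 fold change was -1.05 (SE 0.294, adjusted p = 0.00870), and the call was kept in 13 of 13 alternatives on the all-gene scale. In the background-limited fit the same gene was at -0.05 (SE 0.200, adjusted p = 0.885). The muscle form Cox7a1 was at 0.717, 0.485 and 0.497 CPM in HFD against 0.241, 0 and 0 CPM in HFD+MGIG, where a count of 0 allows up to 1.35 CPM in HFD+MGIG 2 and 0.612 CPM in HFD+MGIG 3. Cox7a2l, a related protein that joins complexes III and IV into a supercomplex, was at 80.7, 60.8 and 61.4 CPM and 66.0, 38.4 and 61.8 CPM. It overlapped and had the highest log2 fold change among complex IV genes above 10 CPM, at -0.56 (adjusted p = 0.168).

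Cox8a was at 116, 77.6 and 73.9 CPM in HFD against 56.9, 47.0 and 72.2 CPM with MGIG (log2 fold change -0.89, adjusted p = 0.0409), a call lost in 8 of 13 alternatives. The muscle form Cox8b was at 3.17, 0.693 and 2.61 CPM and 0.482, 0.452 and 0.408 CPM, below the filter and not tested. The testis form Cox8c had counts in HFD+MGIG 3 alone, at 0.204 CPM, where the floor of 3 counts is 0.612 CPM. The testis form Cox7b2 was at 0, 0.277 and 0 CPM in HFD against 0.964, 2.71 and 2.04 CPM in HFD+MGIG, under its bound of 3.47 CPM there. Its highest values were in HFD 2 and HFD+MGIG 2, the libraries with the most silent-family counts of their groups, whose part in this value was not tested. Of the 7 alternative forms of complex IV subunits, 7 were at or below the bound in HFD+MGIG. In HFD, where bounds were lower, some means were above them: Cox8b at 2.16 CPM (bound 0.0913) and Cox6b2 at 1.77 CPM (0.281). Cox4i2 at 1.31 CPM (0.2) and Cox7a1 at 0.566 CPM (0.136) were above as well. Cox6a2, Cox7b2 and Cox8c were below their bounds in HFD too.

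**Figure D3:**
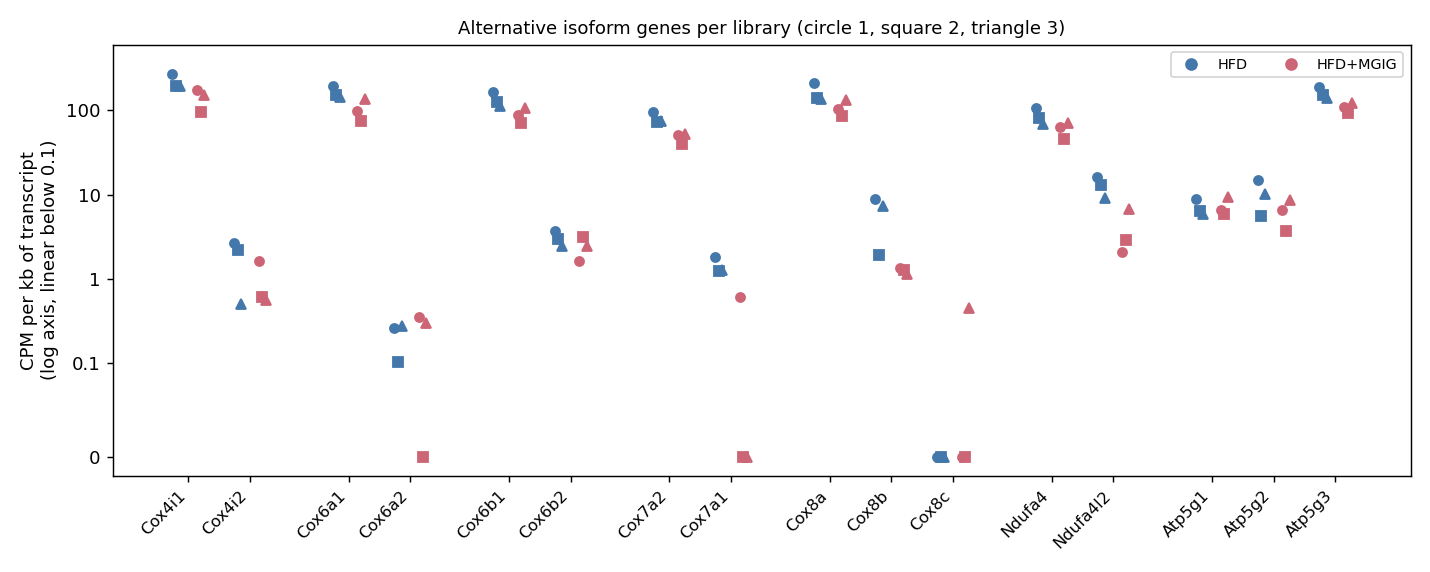
Level per kb of transcript (CPM per kb, log axis, linear below 0.1) of genes coding for alternative forms of complex IV subunits and of the ATP synthase c subunit, in each HFD (blue) and HFD+MGIG (red) library; symbols give the replicate number. The widely used forms, such as Cox4i1 at 217 CPM per kb in HFD, lie far above the muscle, lung and testis forms, and Ndufa4l2 lies at 12.8 CPM per kb in HFD against 3.91 in HFD+MGIG.

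Ndufa4, a subunit at the edge of complex IV, was at 64.8, 49.9 and 42.3 CPM in HFD against 38.3, 28.0 and 43.0 CPM in HFD+MGIG. The groups overlapped by a little, and the log2 fold change was -0.80 (adjusted p = 0.0434), lost in 7 of 13 alternatives. Its relative Ndufa4l2 (chr10:127514967-127517154), known as a gene switched on by low oxygen and used by pericytes, had the lowest fold change of the 90 tested members. It was at 15.2, 12.1 and 8.51 CPM in HFD against 1.93, 2.71 and 6.32 CPM in HFD+MGIG. Every HFD+MGIG library was below every HFD library, with HFD 3 and HFD+MGIG 3 the closest. The means were 12 ± 3.36 and 3.65 ± 2.34 CPM (n = 3 each) and the log2 fold change was -1.96 (SE 0.489, adjusted p = 0.00435), kept in 13 of 13 alternatives.

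Ndufa4l2 was too low for the background-limited set: its HFD+MGIG mean was under the bound of 7.01 CPM, and its HFD mean far above the HFD bound of 0.278 CPM. Pericyte markers, a list added after the values were seen, summed to 361 to 499 CPM in HFD against 126 to 192 CPM in HFD+MGIG, with 6 of 8 lower and 0 higher. Among them Notch3 was at 65.9, 63.8 and 66.8 CPM in HFD against 19.3, 4.97 and 16.9 CPM with MGIG (log2 fold change -2.48, adjusted p = 0.000484). Of 10 genes known to respond to low oxygen, also listed after the values were seen, 6 were lower and 1 higher. Over all genes tested on the all-gene scale 17.8% were lower and 42.9% higher. The part of pericytes or of oxygen in the Ndufa4l2 value was not tested.

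ATP synthase has a catalytic F1 head, a peripheral stalk and a membrane part whose c ring turns with the proton flow. Its 18 genes summed to 1984 ± 211 CPM in HFD against 1293 ± 294 CPM in HFD+MGIG, a ratio of 0.652. On the all-gene scale 5 of 17 tested were lower with a median of -0.86, beside 43.1% of all background-limited and 17.8% of all genes. Without HFD 1 the count was 0, and without HFD+MGIG 2 it was 10. The parts of the enzyme differed in their sums: the ratio was 0.583 for 5 genes of the F1 head, 0.682 for the peripheral stalk, 0.750 for the 3 c subunit genes and 1.07 for 4 other membrane genes (Atp5j2, Atp5k, Atp5l and Atp5mpl). Within the last part, Atp5l had a ratio of 1.31, while Atp5j2, Atp5k and Atp5mpl were at 0.864, 0.687 and 0.76. The ratio of 1.07 thus rests on Atp5l. The difference between the ratios of the parts was not tested. The groups stood apart in all 5 genes of the F1 head and in 4 of the peripheral stalk. Among all background-limited genes, 68.1% were lower without overlap. On the background-limited scale 0 of 4 tested F1 genes passed, with values from -0.17 to 0.09. In the other membrane part the groups did not overlap only for Atp5l, which was higher.

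Atp5b (chr10:128083273-128090391) codes for the catalytic beta subunit and was the most abundant member per kb, at 365 CPM per kb in HFD and 202 in HFD+MGIG. It was at 762, 650 and 683 CPM in HFD against 472, 263 and 427 CPM in HFD+MGIG. All HFD libraries were above all HFD+MGIG libraries, with a log2 fold change of -1.13 (SE 0.470) that missed the threshold (adjusted p = 0.0529) and passed it in 5 of 13 alternatives. On the background-limited scale it was -0.17 (SE 0.129, adjusted p = 0.457).

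The c subunit is the same mature protein from 3 genes that differ in their targeting sequence. Atp5g3 was the most used, at 136, 111 and 101 CPM in HFD against 79.5, 67.7 and 88.3 CPM with MGIG (log2 fold change -0.86, adjusted p = 0.0452), a call lost in 9 of 13 alternatives. Atp5g1 was at 41.3, 30.1 and 27.9 CPM and 31.3, 27.5 and 43.8 CPM, and Atp5g2 at 10.9, 4.02 and 7.45 CPM and 4.82, 2.71 and 6.32 CPM. Both overlapped between groups and neither passed (log2 fold changes -0.24 and -0.91, adjusted p = 0.502 and 0.135). Per kb, Atp5g3 stood at 160 CPM per kb in HFD, Atp5g2 at 10.2 and Atp5g1 at 7.02, the latter within the spread of Atp5g2 over its libraries. The transcripts used were 723 bases long for Atp5g3, 731 for Atp5g2 and 4715 for Atp5g1. The order of Atp5g1 and Atp5g2 per kb therefore rests on the transcript chosen, and in CPM Atp5g1 was the higher.

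Atp5l (chr9:44912557-44920742) codes for subunit g, a membrane protein where ATP synthase dimers meet. It was at 93.8, 76.3 and 67.6 CPM in HFD against 96.6, 116 and 99.7 CPM in HFD+MGIG. All HFD+MGIG libraries were above all HFD libraries, though HFD 1 and HFD+MGIG 1 nearly met. The means were 79.3 ± 13.4 and 104 ± 10.2 CPM (n = 3 each). The log2 fold change was 0.07 on the all-gene scale (adjusted p = 0.850) and 1.18 on the background-limited scale (SE 0.303, adjusted p = 0.0441). That call was lost in 7 of 13 alternatives, among them without HFD 1, 2 or 3 (adjusted p = 0.105, 0.147 and 0.154), without HFD+MGIG 3 (0.0620), with background subtracted (0.0735) and with library totals as the scale (0.300).

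The bound on background for Atp5l was 1.63 CPM in HFD against 41.3 CPM in HFD+MGIG, a large part of its level. Entry to the background-limited set was judged on means over all 6 libraries. The HFD mean of Atp5l alone, 79.3 CPM, would not have met the limit of 0.25. Its call on that scale is therefore not independent of how the set was chosen. The exons of Atp5l overlap an antisense gene on the other strand by 133 bases. Across the 78 tested members with a mean of at least 10 CPM over the 6 libraries, the all-gene log2 fold change was higher where the HFD+MGIG bound was larger relative to the HFD level (Spearman's rho 0.50), higher in genes less used in HFD (rho -0.44) and higher at lower GC content (rho -0.38). The relative bound and the HFD level both hold the HFD values that the fold change holds too, so their correlations with it are in part built in. Exon length, which sets the bound, had a rho of 0.17. On the background-limited scale the relative bound had a rho of 0.24 (63 members). These are descriptions across genes that share the same 6 libraries, and the part of these properties in the fold changes was not tested. Ndufb2, Atp5l, Uqcrq, Atp5g1 and Ndufab1 (the mitochondrial acyl carrier protein, log2 fold change -0.33) were among the members with the highest fold changes.

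**Figure D4:**
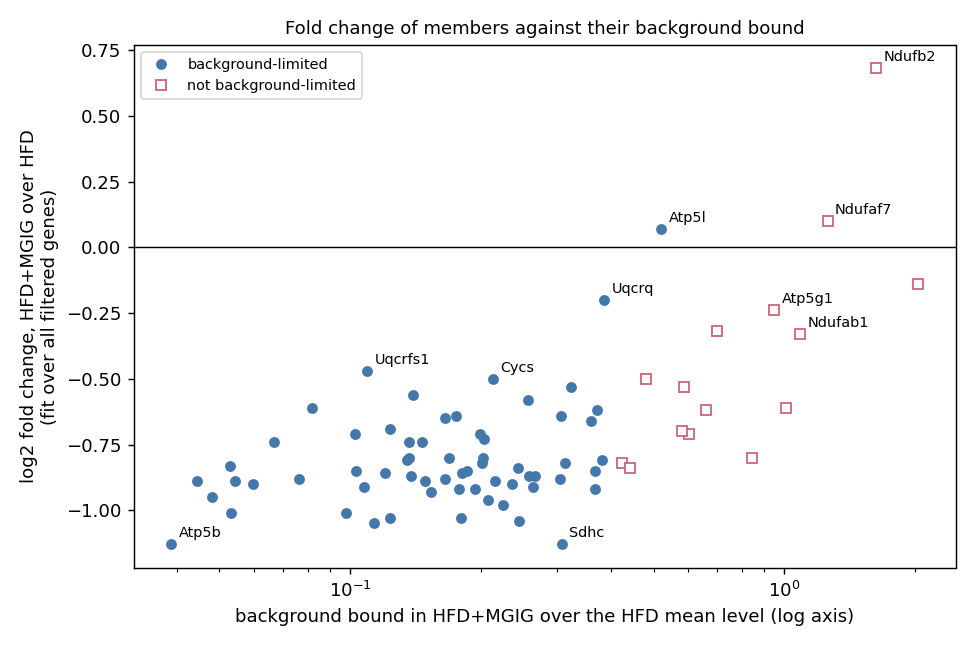
Log2 fold change in the fit over all filtered genes (vertical axis) of the 78 tested members with a mean of at least 10 CPM over the 6 libraries against the HFD+MGIG background bound divided by the HFD mean level (horizontal log axis); blue circles are background-limited and open red squares are not. Fold changes are higher toward the right (Spearman's rho 0.50), with Ndufb2 at 0.68 highest and Atp5b and Sdhc at -1.13 lowest. The HFD level enters both axes, so this correlation is in part built in. Ndufa4l2, with a lower mean level, is not shown.

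Genes that work beside the complexes gave a frame for these values, as counts of genes passing on the all-gene scale. There 17.8% of all genes were lower and 42.9% higher, and 43.1% of background-limited genes were lower. The 13 mitochondrially encoded subunits, which pair with complexes I, III, IV and V, summed to 24489 ± 2228 CPM in HFD against 12122 ± 2458 CPM in HFD+MGIG. Of 12 tested, 7 were lower and 0 higher, with a median log2 fold change of -1.21, below the -0.81 of the nuclear members. Among them mt-Nd4, a proton-pumping subunit of complex I, was at 1836, 1551 and 1536 CPM and 881, 608 and 657 CPM (log2 fold change -1.49, adjusted p = 0.0194). No test of the difference between mitochondrial and nuclear subunits was made.

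The tricarboxylic acid cycle, which supplies NADH and succinate, had 11 of 17 genes lower and 0 higher, with a median of -0.91. Citrate synthase (Cs), its entry enzyme, was at 132, 145 and 149 CPM in HFD against 92.1, 45.2 and 78.3 CPM with MGIG (log2 fold change -1.26, adjusted p = 0.0176). In the background-limited fit 0 of 12 passed, and the lowest of them, Ogdh of the 2-oxoglutarate dehydrogenase complex, was at -0.77 (adjusted p = 0.1). Mitochondrial carriers and porins had 3 of 9 lower, Vdac1, Slc25a4 and Vdac2, with a median of -0.80. Cytosolic ribosomal proteins, a reference of short and abundant nuclear genes, had 9 of 82 lower with a median of -0.72, and 0.25 on the background-limited scale. The members' median of 0.14 there lay between those of the cycle (-0.00) and of the ribosome.

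Many assembly factors were close to background: those with an HFD+MGIG mean at or below the bound were 3 of 4 for complex II, 4 of 6 for complex III, 17 of 23 for complex IV and 2 of 4 for ATP synthase. Of those tested for complex II, III and IV, 0 of 4, 0 of 6 and 2 of 22 were lower, and 1, 1 and 1 were higher (Sdhaf3, Lyrm7 and Sco1), each with an HFD+MGIG level at or below its bound. The factors and inhibitor of ATP synthase had 2 of 4 lower, Atpaf2 and Tmem70. Mitochondrial ribosomal proteins had 9 of 78 lower and 2 higher, with a median of -0.53.

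Regulators of mitochondrial genes had 4 of 14 lower (Pprc1, Gabpa, Gabpb1 and Yy1) and 2 higher. Gabpa and Nrf1 are named because their motifs were searched in the promoters. Gabpa was at 66.2, 71.9 and 83.8 CPM in HFD against 39.5, 14.9 and 36.7 CPM in HFD+MGIG, well apart (log2 fold change -1.54, SE 0.408, adjusted p = 0.00616), with an HFD+MGIG mean of 30.4 CPM under its bound of 36.4 CPM. Its exons overlap those of Atp5j, a stalk subunit, by 397 bases on the other strand. Nrf1 was at 36.0, 35.5 and 31.7 CPM and 27.7, 43.4 and 28.5 CPM, overlapping (log2 fold change -0.40, adjusted p = 0.195). Ppargc1a, the coactivator of mitochondrial biogenesis, was at 0.538, 1.45 and 0.870 CPM in HFD against 12, 27.5 and 8.16 CPM in HFD+MGIG. It was higher (log2 fold change 3.63, adjusted p = 0.000293), and all HFD+MGIG values lay under the bound of 42.2 CPM.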

How the data were processed

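RNA sequencing was done on 6 libraries. The authors deposited estimated counts per gene, of which 33.3% to 41.8% of detected values were fractional. Per the submitters' processing notes fastp, HISAT2, StringTie and the build mm10 were used. The program that made the counts, its strand setting and versions are not stated there. Counts were rounded to whole numbers. Symbols, positions and lengths came from GENCODE M21, which held 51884 of the 57180 identifiers. Levels per kb used the principal transcript. edgeR 4.0.16 (R 4.3.3) was fitted with TMM factors, filterByExpr and group as the only term, over all genes, and again over protein-coding genes outside the silent families with 2 or more exon blocks and a bound that, averaged over libraries, was no more than 0.25 of their CPM. The standard error was the log2 fold change over the root of the F statistic.

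The members, lists and tests were chosen with earlier results of these data known. Named members were the 2 most abundant per kb and the lowest and highest fold change per complex among those of at least 10 CPM, calls on the background-limited scale, fixed isoforms, complex II, Cyc1 and Cycs. From each list at most 3 genes with the smallest p are named, and others only as members of a count. Uqcrfs1, Ndufab1, Gabpa and Nrf1 were added after their values were seen. Alternatives were DESeq2 1.42.0 and its size factors, library totals, limma 3.58.1 (voom with quality weights), other filters, the replicate number as a block, each library left out, background subtraction, a stricter bound, and removal of trends on GC content and length (splines with 4 degrees of freedom). The fits were tested on simulated counts. Intervals of counting were not computed beyond floors of 3 counts, which cover counting error only.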

Additional observations from a re-analysis of the deposited data

How the results depend on the processing

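Depth in HFD+MGIG, where a count of 0 allows 0.612 to 1.35 CPM, and the counts on silent families limit the low members, and 19 of the 96 had an HFD+MGIG mean at or below their bound. The count of lower members on the all-gene scale, 35, was 2 with a minimum of 5 CPM in 3 libraries, 6 with library totals and 62 with voom. It was 47 with DESeq2, 35 with DESeq2's size factors and 40 with no filter, and leaving out each library gave 3 to 57. The count of higher members, 0, was 1 under all of these settings (Ndufb2 or Cox7b2), and 0 to 2 with a library left out. The members' median was -0.44 with the minimum of 5 CPM and -0.52 with library totals. Its distance from the median of the background-limited genes was 0.11 in the main analysis and between 0.03 and 0.25 in all 13 alternatives. On the background-limited scale the count of lower members was 1 with library totals and 0 otherwise. The count of higher members, 1, was 0 with library totals, background subtracted, the stricter bound or the GC and length trend removed, 2 with DESeq2 (Atp5l and Uqcrq) or voom (Atp5l and Cox7a2l), and 0 to 1 with a library left out. The median there, 0.14, reversed to -0.56 with library totals, a scale that moves the median of that whole set to -0.63, and to -0.01 with the trend removed. The cause of these changes was not tested.

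The same replicate number did not pair the libraries: correlations of deviations were 0.048, 0.26 and 0.079 on the all-gene scale and -0.127, 0.117 and 0.222 on the other. With the replicate number as a block, 30 members were lower and 0 higher, and on the background-limited scale 0 and 1. The summed levels were also taken as a share of protein-coding counts outside the silent families. The log2 ratio was then -0.10 for all members, 0.01 for complex I and 0.53 for its assembly factors. It was -0.06 for complex III, 0.30 for cytochrome c, -0.15 for complex IV and -0.19 for ATP synthase. In CPM these were -0.53, -0.44, 0.06, -0.49, -0.19, -0.58 and -0.62, so that complex I and cytochrome c changed sign. The assembly factors were at -0.60 with background subtracted and at -0.01 to 0.16 with a library left out.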

Other observations

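Among genes outside the complexes, 2 with HFD+MGIG levels well above their bound were far higher with MGIG. Acad9, an acyl-CoA dehydrogenase that also helps to build complex I, was at 45.1, 93.0 and 46.3 CPM in HFD against 666, 1624 and 755 CPM in HFD+MGIG, far apart and well above its bound of 52.4 CPM. Its log2 fold change was 3.64 (SE 0.556, adjusted p = 0.000236) on the all-gene scale and 5.0 (adjusted p = 0.0135) on the background-limited scale. Mrpl48, a protein of the large mitochondrial ribosomal subunit, was at 32.7, 68.2 and 38.1 CPM and 312, 702 and 368 CPM, with a bound of 52.2 CPM. Its log2 fold change was 2.92 (adjusted p = 0.000347) and 4.25 (adjusted p = 0.0146). Neither Acad9 nor Mrpl48 would have entered the background-limited set at its HFD level alone. Their values on that scale are therefore not independent of how the set was chosen. In both genes HFD 2 was the highest of the HFD libraries and HFD+MGIG 2 of the HFD+MGIG libraries, the same libraries that held the most silent-family counts in each group (0.280% and 6.43%). The part of those counts was not tested. The other tested assembly factors of complex I outside the rule ran to 1.94 (Timmdc1) and 1.08 (Nubpl) among those that passed, both at or below their bound in HFD+MGIG.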
